A study of Mus musculus with 20 samples.

Results

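The complement genes C1qa, C1qb, C1qc, C3, C4b, Serping1, Cd59a and Cfi were followed in retinas of Nrl-/- mice of the C57Bl/6J strain at 1, 2, 4, 6 and 10 months after birth, with 4 mice per age. Both retinas of a mouse were pooled and hybridised to 1 exon array, so a replicate is a mouse. Nrl encodes the transcription factor needed for rods to form, and a retina that lacks it makes cone-like cells in place of rods. Every mouse carried the deletion, and no wild-type retina was analysed here, so an effect of age in this mutant cannot be told apart from normal ageing. The 8 genes are those that the platform annotation gives to 91 of the 194293 probe sets, out of 15781 genes in the table. Values are log2 intensities, a gene's level is the median polish over its probe sets, and a level can be compared between ages of 1 gene but not between genes. All 8 genes lay above the limit of 5.61 below which the dimmest 25% of genes were left out, and 11836 genes were tested.

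Complement is a set of proteins that mark targets for removal. C1q, a recognition molecule built of A, B and C chains from 3 neighbouring genes, starts the classical pathway when it binds its target, the pathway then cleaves C4 and C3, and the C3 fragments tag the target for phagocytes or lead on to the membrane attack complex. Serping1 encodes C1 inhibitor, which blocks the proteases that C1q carries, Cfi encodes factor I, the protease that cuts deposited C3 and C4 fragments, and Cd59a encodes a membrane protein that stops the attack complex from forming. In mouse brain and retina C1q is made mainly by microglia, the resident macrophages.

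The tissue label fitted the arrays, with the mean of 10 cone genes between 11.50 and 11.97 on all 20. The array of replicate 4 of 4 months had the lowest mean correlation with the others, 0.985, with the rest between 0.987 and 0.993. The Y-linked gene Kdm5d measured between 3.93 and 4.65 in the 4 arrays of 2 months, against 7.66 to 7.82 at 1 month, and at 10 months it was 4.45 and 4.49 in replicates 2 and 3 and 7.36 in replicates 1 and 4. The labels give no sex, and all comparisons with 2 months compare this Y-linked level along with age. The labels give no processing date, so a batch of arrays cannot be told apart from age. In whole retina, fewer cells of a type and less RNA per cell cannot be told apart.

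Complement genes were highest at 2 or 4 months and split by how long they stayed high. All 8 were higher at 2 months than at 1 month (limma, Benjamini-Hochberg adjusted p from 4.28e-06 to 0.0149), where 3.3% of all tested genes were called higher, and in all 8 the arrays of 2 months lay above every array of 1 month, as in 7.5% of all genes. At 4 months 6 of 8 were above 1 month, against 6.9% of genes, at 6 months 4 of 8, against 7.89%, and at 10 months 3 of 8, against 20.6%. The arrays lay wholly above those of 1 month in 5, 4 and 3 of the 8 at 4, 6 and 10 months, as in 8.32%, 11.2% and 17.9% of genes. The median change of the 8 genes from 1 month was 0.71, 0.68, 0.43 and 0.24 at 2, 4, 6 and 10 months, beside 0.01, 0.01, 0.01 and 0.04 over all tested genes. Set against 4 months, 5 of 8 were lower at 10 months, where 11.7% of genes were called lower, and 4 of 8 without overlap, as in 10.3% of genes. Set against 2 months, a comparison chosen after seeing the data, the same number, 5, were lower at 10 months, where 15.8% of genes were. Limma called 0 of the 8 between 2 and 4 months, with 3 at an unadjusted p under 0.05 and 0.127% of genes called, 0 between 4 and 6 months, with 2 at that p and 0% of genes called, and 0 between 6 and 10 months, with 4 at that p and 20.3% of genes called. By the F test over all ages 8 of 8 passed, where 38.4% of genes did.

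**Figure D1:**
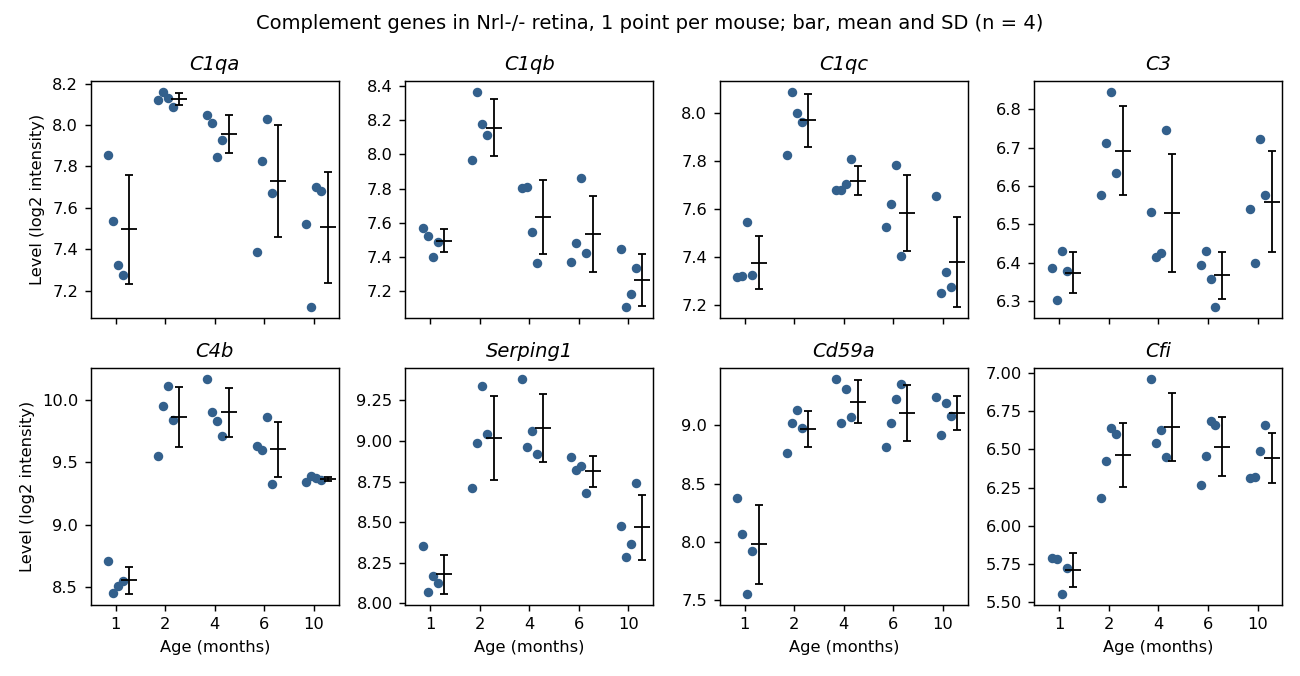
Log2 level (y axis) of each complement gene by age in months (x axis), with a point per mouse and a bar for the mean and SD of 4 mice; each panel has its own scale. C1qa, C1qb and C1qc are highest at 2 months, C4b and Serping1 at 2 and 4 months, and the arrays of Cd59a and Cfi from 2 months on lie above all those of 1 month.

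The C1q genes rose at 2 months, and at 10 months they overlapped with or lay near their level of 1 month. C1qa, the gene of the A chain, had levels of 8.12, 8.16, 8.13 and 8.09 in the arrays of 2 months, against 7.85, 7.54, 7.32 and 7.28 at 1 month, a rise of 0.63 ± 0.14 (SE, n = 4 per age; limma adjusted p = 0.0083). The arrays of 2 months were close to each other and all above 1 month. At 4 months C1qa was at 8.05, 8.01, 7.84 and 7.93, at 6 months at 7.39, 7.83, 8.03 and 7.67, and at 10 months at 7.52, 7.12, 7.70 and 7.68. All 3 of these ages overlap with 1 month, and the change from 1 month to 10 months was 0.01 with a 95% interval of -0.28 to 0.30. Against 4 months it fell by 0.45 ± 0.14 at 10 months (adjusted p = 0.0251). Fits that omitted replicate 1 or 2 of 4 months, or replicate 2 of 10 months, no longer made that call (adjusted p up to 0.0928). The rise of C1qa at 4 months over 1 month (0.46 ± 0.14, adjusted p = 0.0304) was lost in 5 of 8 fits that left out 1 array of these ages (0.39 to 0.47, adjusted p from 0.0551 to 0.0893). The arrays concerned were replicates 2, 3 and 4 at 1 month and replicates 1 and 2 at 4 months.

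C1qb, the B chain gene, had the steepest return of the 3. It measured 7.96, 8.37, 8.18 and 8.11 at 2 months, against 7.57, 7.52, 7.40 and 7.49 at 1 month (0.66 ± 0.12, adjusted p = 0.00151). At 4 months it was at 7.81, 7.81, 7.54 and 7.36, below every array of 2 months, as were all 3 C1q genes (2.62% of genes), at 6 months at 7.37, 7.48, 7.86 and 7.42, and at 10 months at 7.45, 7.11, 7.18 and 7.33. The step between 2 and 4 months, -0.53 ± 0.12, did not pass the threshold over all genes (limma adjusted p = 0.113), while 6 months was lower than 2 months (-0.62 ± 0.12, adjusted p = 0.0143), as 0.33% of genes were, in a comparison chosen after seeing the data. At 4 months C1qb was 0.14 ± 0.12 above 1 month (adjusted p = 0.479), with overlapping arrays. Its fall at 10 months against 4 months, -0.36 ± 0.12 (adjusted p = 0.0303), was lost in 4 of 8 fits without 1 array (adjusted p up to 0.0999). The arrays concerned were replicates 1 and 2 at 4 months and replicates 2 and 3 at 10 months.

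C1qc, the C chain gene, measured between 7.82 and 8.09 at 2 months, against 7.32, 7.32, 7.54 and 7.33 at 1 month (0.59 ± 0.09, adjusted p = 0.00061). It was between 7.68 and 7.81 at 4 months, between 7.41 and 7.78 at 6 months and between 7.25 and 7.65 at 10 months. At 4 months all arrays were still above 1 month (0.34 ± 0.09, adjusted p = 0.0154), and at 10 months C1qc was lower than at 4 months (-0.34 ± 0.09, adjusted p = 0.0117). Both calls held in each of the 8 fits that left out 1 array of the ages compared. The rise at 4 months did not pass with the brightest probe set (0.29, adjusted p = 0.109), nor the fall with the mean of the probe sets (-0.29, adjusted p = 0.0657) or in a fit of the arrays of both ages alone (adjusted p = 0.056). In each of the 3 genes the mean level was lower at each age after 2 months than at the one before, but no step between neighbouring ages in that order passed the threshold (limma adjusted p from 0.111 to 0.903). At 10 months against 2 months the changes were -0.62, -0.89 and -0.59 for C1qa, C1qb and C1qc (adjusted p from 1.66e-05 to 0.00222). At 10 months the change from 1 month was -0.23 (95% interval -0.47 to 0.01) for C1qb and 0.00 (-0.19 to 0.19) for C1qc.

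The 3 C1q genes lie next to each other on chromosome 4 (RefSeq, GRCm38.p6), C1qb at 136880126 to 136886200, C1qc at 136889801 to 136892936 and C1qa at 136895916 to 136898844. The promoters of C1qb and C1qc, the C1q genes found in the RefSeq promoter table, are printed because both genes were high at 2 months and lower at 10 months. They span 250 bases before to 50 after the start, at chr4:136886151-136886450 and chr4:136892865-136893164, both on the minus strand and written 5′ to 3′. Capitals mark the core motif of the macrophage and B cell factor PU.1, GAGGAA or its reverse complement.
C1qb: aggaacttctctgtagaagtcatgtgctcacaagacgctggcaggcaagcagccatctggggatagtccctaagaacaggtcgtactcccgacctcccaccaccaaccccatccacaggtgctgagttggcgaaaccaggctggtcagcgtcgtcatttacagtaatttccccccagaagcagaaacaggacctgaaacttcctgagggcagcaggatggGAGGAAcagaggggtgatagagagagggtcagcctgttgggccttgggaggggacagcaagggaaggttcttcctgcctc
C1qc: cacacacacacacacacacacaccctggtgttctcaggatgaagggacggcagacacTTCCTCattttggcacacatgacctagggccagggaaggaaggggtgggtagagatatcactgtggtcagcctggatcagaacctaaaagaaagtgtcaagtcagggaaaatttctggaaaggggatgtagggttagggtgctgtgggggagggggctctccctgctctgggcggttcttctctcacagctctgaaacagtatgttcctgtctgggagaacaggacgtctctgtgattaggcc
The motif stands at -30 to -25 on the gene's strand in C1qb and at -193 to -188 on the other strand in C1qc. It was found in 28.3% of all 32851 promoters of this length, on both strands. The STAT motif TTCNNNGAA, the interferon response motif, the C/EBP motif TTGCNNAA and the NF-kB motif, searched in the same way, had no match in these windows and were found in 8.3%, 3.4%, 10.8% and 4.8% of all promoters. A match is a description of the letters.

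C4b, whose product is cleaved by the proteases bound to C1q, made the largest rise of the 8 genes and stayed high through 4 months. It measured 9.55, 9.95, 10.11 and 9.84 at 2 months and 10.17, 9.90, 9.83 and 9.71 at 4 months, against 8.71, 8.45, 8.51 and 8.55 at 1 month. No array of a later age overlapped with 1 month. C4b was up 1.31 ± 0.12 at 2 months (2.47-fold, adjusted p = 4.28e-06) and 1.34 ± 0.12 at 4 months (2.54-fold). It measured 9.63, 9.59, 9.86 and 9.32 at 6 months and 9.34, 9.39, 9.37 and 9.36 at 10 months. The last group, with an SD of 0.02 where the other ages had 0.11 to 0.24, lay below all arrays of 4 months (-0.53 ± 0.12, adjusted p = 0.00294) and above all of 1 month (0.81 ± 0.12, adjusted p = 2.14e-05). C4b thus kept part of its rise at 10 months, 1.75-fold over 1 month.

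The mouse genome holds a near-identical copy, C4a, on the same chromosome, and the signals of both genes on an array may mix. The 10 probe sets used are given to C4b alone by the platform annotation. The 4 probe sets given to both genes changed by 1.35, 1.38 and 0.86 at 2, 4 and 10 months against 1 month in their mean, close to C4b itself, so C4b values are uncertain as to the copy.

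C3, the gene of the component on which all complement pathways meet, moved least. It measured 6.58, 6.71, 6.85 and 6.63 at 2 months, against 6.38, 6.30, 6.43 and 6.38 at 1 month (0.32 ± 0.08, adjusted p = 0.0149), and the call did not survive omission of the 1 month replicate 2 or the 2 months replicate 3 (adjusted p = 0.0534 and 0.061), nor the brightest of its 39 probe sets (0.30, adjusted p = 0.601). At 4, 6 and 10 months it was between 6.41 and 6.75, between 6.28 and 6.43 and between 6.40 and 6.72, and it overlapped with 1 month each time. The change from 1 month was -0.01 at 6 months (95% interval -0.17 to 0.16) and 0.19 at 10 months (0.02 to 0.35, adjusted p = 0.064). Without replicate 2 of 10 months the change at that age was 0.24 and passed (adjusted p = 0.0242). Genes of the pigment epithelium, a tissue that borders the retina, varied at 10 months. The mean of 11 such genes was 8.25, 7.69 and 8.07 in replicates 1, 3 and 4, with C3 at 6.54, 6.72 and 6.58, and 6.61 in replicate 2, with C3 at 6.40. Replicate 2 of 10 months was not low for C3 alone. It was also the lowest array of its age for C1qa (7.12), C1qb (7.11), C1qc (7.25), Serping1 (8.29) and Cd59a (8.92), though not for C4b or Cfi. The part of that tissue in the level of C3 was not tested.

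The inhibitors divided. Serping1 followed C4b, with 8.71, 8.99, 9.34 and 9.05 at 2 months and 9.38, 8.96, 9.06 and 8.92 at 4 months, against 8.35, 8.07, 8.17 and 8.13 at 1 month. The rise was 0.84 ± 0.12 at 2 months and 0.90 ± 0.12 at 4 months (adjusted p = 0.000413 and 9.39e-05), with no overlap. At 6 months it was between 8.68 and 8.90, below every array of 4 months and still above 1 month (0.63 ± 0.12, adjusted p = 0.00163). At 10 months it was at 8.48, 8.29, 8.36 and 8.74, lower than at 4 months (-0.61 ± 0.12, adjusted p = 0.00158). Its arrays then overlapped with 1 month, from which it differed by 0.29 ± 0.12 (adjusted p = 0.0681). This last difference passed when the 1 month replicate 1 or the 10 months replicate 2 was omitted (0.35 each, adjusted p = 0.0485 and 0.0435).

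Cd59a and Cfi stayed up at every later age. Cd59a measured 8.76, 9.02, 9.13 and 8.98 at 2 months, against 8.37, 8.07, 7.56 and 7.92 at 1 month, and its lowest array of any later age, 8.76, was above the highest of 1 month. The change from 1 month was 0.99, 1.22, 1.12 and 1.13 at 2, 4, 6 and 10 months, each with an SE of 0.15 (adjusted p from 7.04e-06 to 0.000464). At 10 months, with 9.25, 8.92, 9.19 and 9.08, it was 2.18-fold over 1 month, and the difference from 4 months was -0.09 (95% interval -0.40 to 0.21). The arrays of 1 month were the most spread, with an SD of 0.34.

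Cfi measured 6.18, 6.43, 6.64 and 6.60 at 2 months, against 5.79, 5.78, 5.55 and 5.72 at 1 month. Its change from 1 month was 0.75, 0.94, 0.81 and 0.73 at 2, 4, 6 and 10 months, each with an SE of 0.12 (adjusted p from 6.16e-05 to 0.00094), and no later array overlapped with 1 month. At 10 months it was at 6.31, 6.32, 6.49 and 6.66, and the difference from 4 months was -0.20 (95% interval -0.46 to 0.05). With the brightest of its 15 probe sets the changes at 2 and 4 months were 0.32 and 0.39 and did not pass (adjusted p = 0.265 and 0.106).

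**Figure D2:**
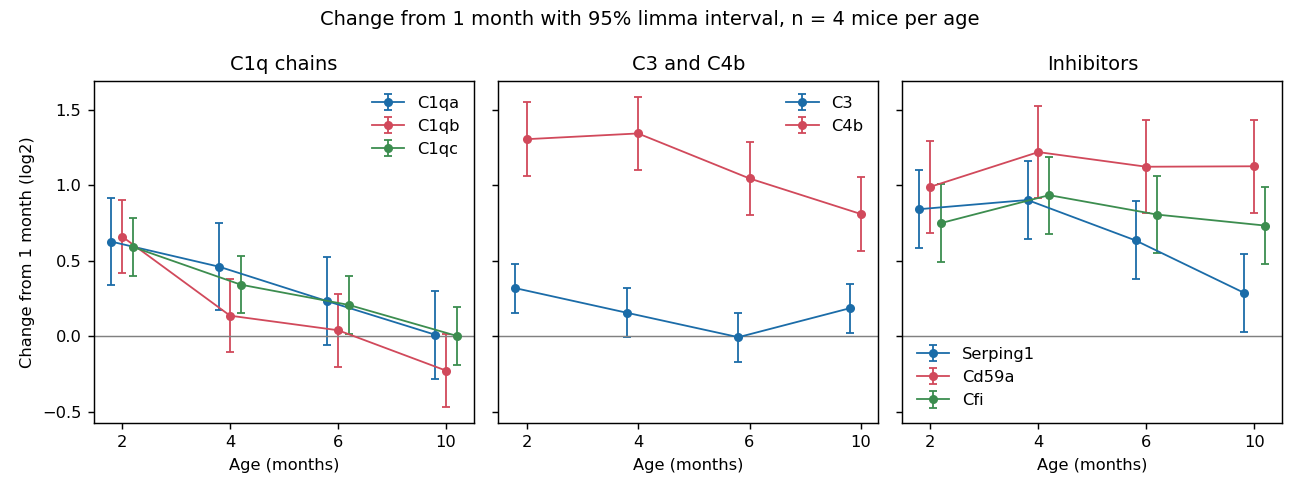
Change from 1 month on the log2 scale (y axis) at 2, 4, 6 and 10 months (x axis) for the C1q chain genes, for C3 and C4b, and for the inhibitor genes; points are limma estimates and bars their 95% intervals, n = 4 mice per age. The C1q estimates lie between -0.23 and 0.01 at 10 months, while C4b is at 0.81, Cd59a at 1.13 and Cfi at 0.73.

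The promoter of Cd59a is printed as that of a gene that stayed high. It lies at chr2:104095551-104095850 on the plus strand (GRCm38.p6), and capitals mark the interferon response motif at -187 to -178, with its 2 middle bases free, and the PU.1 core at -62 to -57.
Cd59a: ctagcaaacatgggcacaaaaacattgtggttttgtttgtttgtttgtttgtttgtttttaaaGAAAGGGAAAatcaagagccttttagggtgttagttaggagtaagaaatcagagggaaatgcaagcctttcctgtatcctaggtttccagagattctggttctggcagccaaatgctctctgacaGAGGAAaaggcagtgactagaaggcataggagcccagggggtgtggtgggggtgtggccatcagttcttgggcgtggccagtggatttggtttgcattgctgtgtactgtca
Promoters of 4 of the 8 members were found in the table. The PU.1 core occurs in the windows of Cd59a, C1qb and C1qc and not in that of C3, which holds a C/EBP match at -45 to -38. Of all promoters, 28.3% held the PU.1 core, 3.4% the interferon response motif and 10.8% the C/EBP motif.

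To compare timing, the level of a C1q gene minus that of another member was taken within each array, for 15 pairs in each of 3 steps, and tested by an exact permutation test over arrays (two-sided, Benjamini-Hochberg over the 15 pairs). Between 1 and 2 months none of the 15 pairs passed. The test of 4 against 4 arrays cannot give a p below 0.0286, which 5 pairs reached (adjusted p = 0.0857, exact permutation test). In 3 of these C4b had risen more than the C1q gene, by 0.65 to 0.71, and in the other two C1qb and C1qc had risen more than C3, by 0.34 and 0.27.

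Relative to Cd59a and Cfi, the inhibitors that stayed up, the C1q genes were lower at 4 and 6 months together than at 2 months. Set against 2 months, the arrays of 4 and 6 months together had lower C1q relative to the other member in 15 of 15 pairs, and 8 passed. The C1q genes changed by -0.57 to -0.28 and the other members by -0.24 to 0.18. As the pairs share genes and arrays, they are not 15 separate observations. The 2 ages were joined because earlier results of these data showed few differences between them. For C1qb, the difference from Cd59a averaged -1.57 ± 0.23 at 4 and 6 months (SD, 8 arrays) and -0.82 ± 0.13 at 2 months (4 arrays), a shift of -0.76 with no overlap (exact permutation adjusted p = 0.0121). All 3 C1q genes passed against Cd59a (shifts of -0.76 to -0.46, exact permutation adjusted p from 0.0121 to 0.013) and against Cfi (-0.69 to -0.40, the same range of p). Against C4b and Serping1 C1qb passed (-0.46 and -0.50, exact permutation adjusted p = 0.0121 and 0.0152) and C1qa and C1qc did not (-0.24 to -0.17, adjusted p from 0.118 to 0.245). Against C3 none passed (-0.33 to -0.04, adjusted p from 0.0808 to 0.762, exact permutation). The 8 became 5 with the brightest probe set. With 4 months or 6 months alone, 4 arrays against 4, the count was 0 each time. Such a test gives no p below 0.0286, and pairs at this floor pass only if many reach it together. These counts therefore do not decide whether the shifts held at each age alone. As the arrays of 2 months are also those with low Y-linked levels, age and sex cannot be told apart in these shifts.

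In the last step, 10 months against 4 and 6 months together, the C1q genes changed by -0.34 to -0.27, C4b by -0.39 and Serping1 by -0.48. The difference between a C1q gene and C4b or Serping1 shifted by 0.05 to 0.21, and none of these 6 pairs passed (exact permutation adjusted p from 0.286 to 0.719). Against Cd59a the shifts were -0.29 to -0.23 (exact permutation adjusted p from 0.17 to 0.251) and against Cfi -0.20 to -0.14 (0.251 to 0.445), and none of these 6 pairs passed. A parting from C3 passed for C1qa and C1qc (-0.45 and -0.38, exact permutation adjusted p = 0.0455 for each) but the count of 2 became 0 without any 1 of 10 of the 12 arrays, the exceptions being replicate 4 of 4 months and replicate 1 of 6 months.

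**Figure D3:**
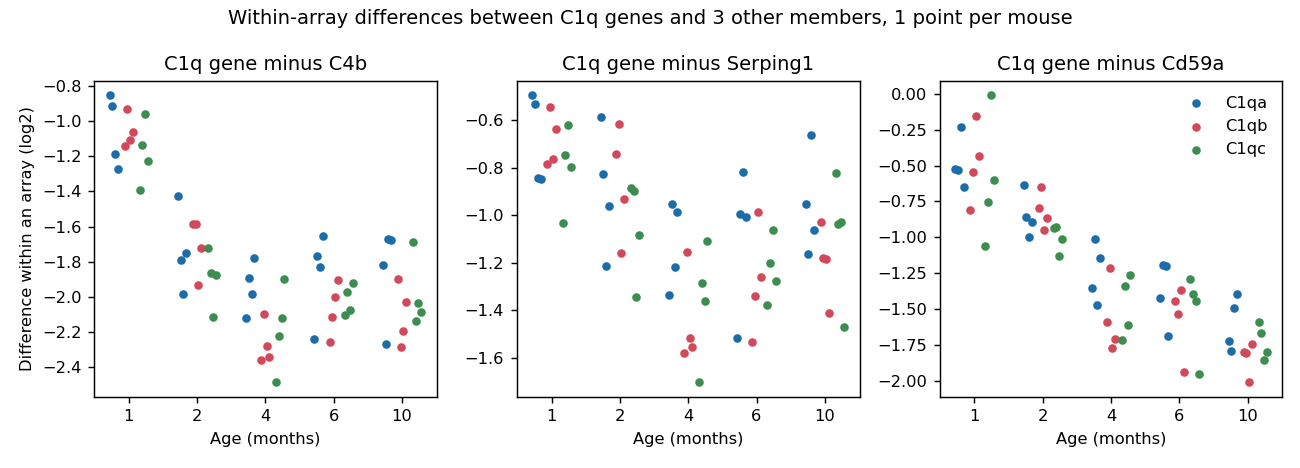
Log2 level of C1qa, C1qb or C1qc minus that of C4b (left), Serping1 (middle) or Cd59a (right) within an array (y axis), by age in months (x axis), a point per mouse. In the differences from Cd59a all 3 C1q genes at 4 and 6 months lie below their values at 2 months; those from C4b and Serping1 overlap more between ages.

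Few other genes of the pathway could be tested, as some had no gene level and others were too dim. A level was at hand for 11 genes of initiation, 8 of the alternative pathway and terminal components, 11 regulators and 8 receptors. Over all tested genes, 3.3%, 6.9% and 20.6% were called higher at 2, 4 and 10 months than at 1 month. The shares called lower were 5.22%, 8.26% and 20.8%. Of 15 further genes of initiation, 5 could be tested and 1 was called in the comparisons of 2, 4 and 10 months with 1 month, Masp2, a protease gene of the lectin pathway, lower at 4 months (-0.29 ± 0.09, limma adjusted p = 0.046). Of 10 genes of the alternative pathway and of the terminal components, 3 could be tested. Cfb and Cfd, which form the alternative pathway convertase and its activating protease, were named after their values were seen and had changes from -0.09 to 0.01 in the same comparisons, and C8g, the gamma chain gene of component 8, was higher at 10 months than at 1 month (0.40 ± 0.14, adjusted p = 0.0325).

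Of 13 further regulators 5 were tested. Clu, the gene of clusterin, which binds attack complexes in fluid, was higher at 2 and 4 months than at 1 month (0.35 and 0.29, adjusted p = 0.000923 and 0.00187), and it was still higher at 6 and 10 months (0.25 and 0.20, adjusted p = 0.00498 and 0.00682). At 10 months against 1 month Susd4 and Csmd1, genes of membrane proteins that inhibit complement, were higher (0.30 and 0.29), Csmd1 also at 4 months (0.26), and Cr1l, the mouse regulator of C3 activation Crry, and Vtn, vitronectin, were lower (-0.48 and -0.42). Calls were frequent in that comparison, with 20.6% of all tested genes higher and 20.8% lower. Among receptors 3 of 9 were tested. Itgam, which encodes the alpha chain of complement receptor 3, had the course of the C1q genes, higher at 2 and 4 months than at 1 month (0.62 ± 0.08 and 0.41 ± 0.08) and lower at 10 months than at 4 months (-0.53 ± 0.08). Itgax, the alpha chain of complement receptor 4, was higher at 2 months (0.33 ± 0.09, adjusted p = 0.0225). The remaining tested receptor gene, Itgb2, was not called at 2 or 4 months against 1 month (0.23 and 0.05, limma adjusted p = 0.196 and 0.815).

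Some markers of microglia and macrophages had changes in the direction of the C1q genes. Of 24 listed, 18 were tested, and 8 rose at 2 months and 3 at 4 months against 1 month, where 3.3% and 6.9% of all tested genes did. At 10 months 3 of the 18 were lower than at 1 month, where 20.8% of all genes were, and 8 were lower than at 4 months, where 11.7% of all genes were. The mean over 22 such genes was 6.44 to 6.60 at 2 months, 6.36 to 6.48 at 4 months, 6.22 to 6.34 at 6 months and 6.10 to 6.26 at 10 months, against 6.13 to 6.29 at 1 month. The protease gene Ctss rose by 0.74 ± 0.11 at 2 months and was lower at 10 than at 4 months (-0.58 ± 0.11), and Tyrobp, an adaptor of microglial receptors, rose by 0.59 ± 0.12 and then was lower (-0.54 ± 0.12). The other 10 tested markers were not called at 2 months, among them Cx3cr1, Aif1, P2ry12 and Trem2 with changes of 0.10, 0.06, 0.12 and 0.19 (limma adjusted p from 0.303 to 0.824). Cx3cr1, which encodes the fractalkine receptor of microglia, was lower at 6 months than at 1 month (-0.30 ± 0.09, adjusted p = 0.035). The part of cell number in the C1q course was not tested.

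Markers of Muller glia had their highest mean at 10 months. Of 16 tested, 5 rose at 2 months, 10 at 4 months and 15 at 10 months against 1 month, where 3.3%, 6.9% and 20.6% of all tested genes did. The mean of the 16 lay between 9.93 and 10.03 at 2 months and between 10.19 and 10.33 at 10 months, against 9.74 to 9.84 at 1 month. Of 9 astrocyte and gliosis genes tested 5 rose at 2 months, Serpina3n, Lcn2, Stat3, Fgf2 and A2m. Serpina3n, a protease inhibitor gene of reactive glia (0.96 ± 0.17), was like Serping1 lower at 10 months than at 4 months (-0.84 ± 0.17). The list did not share this late course. Lcn2 averaged 7.34 at 4 months and 7.87 at 10 months, and Stat3 10.28 and 10.32. Fgf2 averaged 9.07 and 8.63 at these ages, and the mean of A2m was also lower at 10 months. Of 9 pigment epithelium genes tested 4 rose at 10 months, where 20.6% of all genes did, and the median change of 5 connective tissue genes was 0.15, 0.03 and 0.09 at 2, 4 and 10 months against 1 month. The mean of 9 lens genes was 5.32 to 5.60 at 2 months, against 6.29 to 6.95 at 1 month. Of 10 endothelial and pericyte genes 5 fell at 10 months against 1 month and 1 rose, Flt1, a receptor gene for vascular growth factors (0.68 ± 0.08). Of 10 cone genes 6 fell at that age, where 20.8% of all genes did. The part of these tissues in the changes of the complement genes was not tested.

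**Figure D4:**
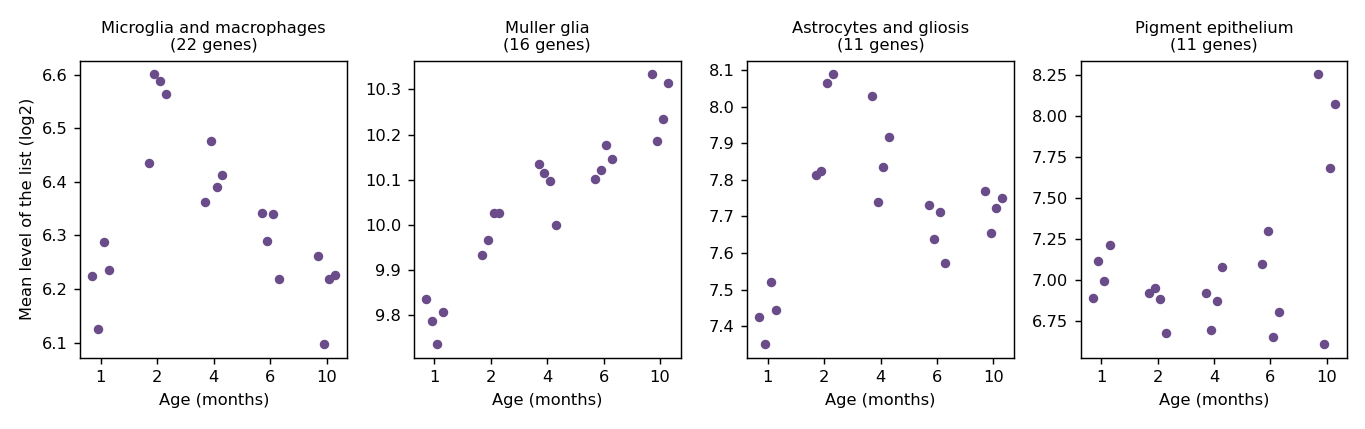
Mean log2 level of each marker list (y axis) by age in months (x axis), a point per mouse. The lists are microglia and macrophages, Muller glia, astrocytes and gliosis, and pigment epithelium. The first is highest at 2 months (6.44 to 6.60) and overlaps with 1 month at 10 months, the Muller glia list is highest at 10 months, and the pigment epithelium list is spread at 10 months (6.61 to 8.25).

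The arrays of 10 months hold both kinds of Y-linked level and give a view of the members at 1 age. C1qb was at 7.11 and 7.18 in the replicates with low Y-linked levels, below 7.45 and 7.33 in the others, and Serping1 at 8.29 and 8.36, below 8.48 and 8.74. C4b lay the other way, at 9.39 and 9.37 in the replicates with low Y-linked levels and 9.34 and 9.36 in the others. C1qa, C1qc, C3, Cd59a and Cfi overlapped between the pairs. With so few arrays none of this was tested. In a fit that held the Y-linked level as a term, 4 of the 8 genes were called at 2 months against 1 month, C1qb, C1qc, C4b and Serping1, and the changes of all 8 were 0.32 to 1.30, where they were 0.32 to 1.31 without it. In the same fit 2 of 8, C4b and Serping1, were called at 10 months against 4 months, and C1qa, C1qb and C1qc were not (-0.34, -0.25 and -0.27, adjusted p from 0.096 to 0.229). Within an age, Kdm5d varied widely only at 10 months (4.45 to 7.36). It lay between 7.15 and 7.48 at 4 months and between 7.38 and 7.67 at 6 months. The Y-linked term therefore rests mainly on the arrays of 10 months, and the fit cannot part age from Y-linked level at 2 months.

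Single probe sets, which cover parts of exons, mostly had the direction of their gene at 2 months. In a fit of each probe set on its own, chosen after seeing the data, all 10 probe sets of C4b were called higher at 2 months against 1 month, 6 of 6 tested of Cd59a, 7 of 9 of Serping1 and 3 of 10 of Cfi, where 0.517% of 145720 tested probe sets were. Of the C1q genes 1 of 2, 0 of 4 and 1 of 4 tested probe sets of C1qa, C1qb and C1qc passed, although 11 of 11 had positive changes, from 0.19 to 0.96. Of 39 probe sets of C3, 8 were too dim to test, 36 had a positive change and 1 passed. At 10 months against 4 months 7 of 10 probe sets of C4b and 6 of 9 of Serping1 were called lower, where 3.98% of probe sets were, and no probe set of Cd59a, Cfi, C3 or the C1q genes passed, where the medians of C1qa, C1qb and C1qc were -0.45, -0.36 and -0.36. In that comparison 1 of 4 probe sets of C1qb and 2 of 5 of C1qc had a positive change, up to 0.17 and 0.18. One of 9 probe sets of Serping1 changed by 0.04 at 2 months, while the other 8 changed by 0.60 to 0.97.

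**Figure D5:**
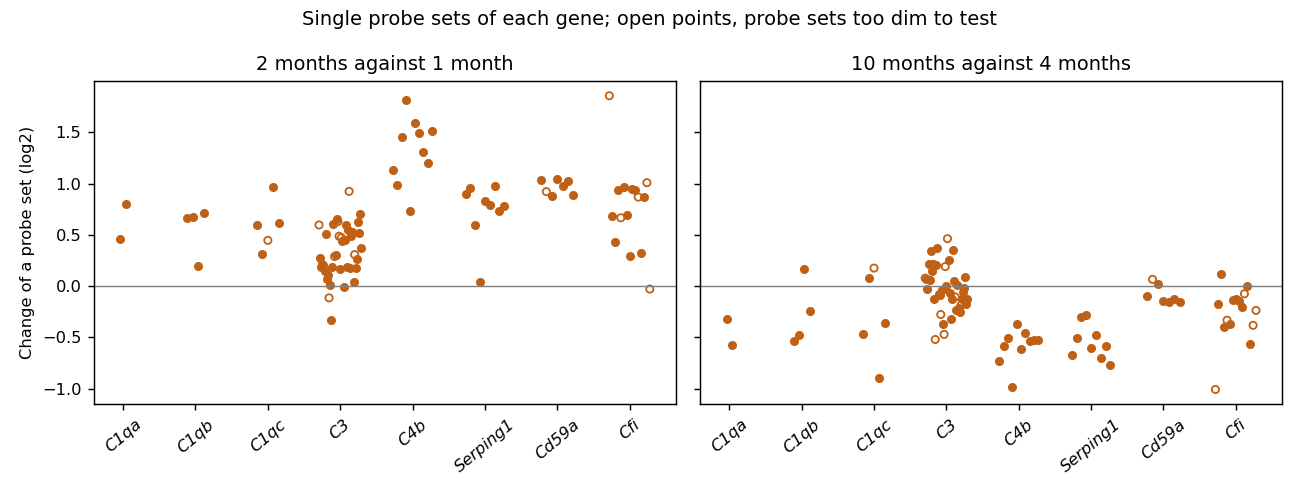
Change of each probe set on the log2 scale (y axis) by gene (x axis), at 2 months against 1 month (left) and at 10 months against 4 months (right); filled points were bright enough to be tested and open points were not. All probe sets of C4b and of Cd59a lie above 0 at 2 months, and at 10 months those of C4b and Serping1 lie below 0.

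The genes with the most similar course over the 20 arrays were found by Pearson correlation among 11634 genes, as a description over arrays that share their ages. For C1qa they were Ctss (0.85), H2-D1 (0.84) and Itgam (0.83), for C1qb Tyrobp (0.89), R3hcc1l (0.88) and Ly86 (0.88), and for C1qc Ctss (0.88), Itgam (0.88) and Cxcl13 (0.86). For C4b they were Serping1 (0.92), Egfr (0.92) and Rnase4 (0.91), and for Serping1 Sulf1 (0.95), C4b (0.92) and Serpina3n (0.90). Cd59a was closest to Apoe (0.95), Cfi (0.94) and Nipal2 (0.92), and Cfi to Cd59a (0.94), Asph (0.93) and Scn7a (0.92). For C3 the highest values were lower, with Lgals3bp (0.83), Endou (0.78) and Mrc2 (0.77). Ctss, Tyrobp and Ly86 are in the microglia list and Apoe is in the Muller glia list. Serpina3n is in the astrocyte and gliosis list and Itgam is among the complement receptors.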

How the data were processed

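RNA of both retinas of each mouse was depleted of ribosomal RNA, amplified as sense-strand cDNA and hybridised, per the labels. The deposited values are log2 intensities, 1 per probe set, which the authors obtained by RMA, per the submitters' processing notes. For its version, the genome build and the choice of probe sets, the labels hold no statement. Of 194293 probe sets 179496 had 1 gene symbol, 1328 several (left out) and 13469 none. Symbols were updated through RefSeq synonyms (GRCm38.p6, 2039 symbols), which gave 15781 genes, of which 15744 had a current name. Levels were summarised by median polish. Genes in the lowest 25% of mean level (log2 under 5.61) were left out. Limma 3.58.1 (R 4.3.3) fitted 1 mean per age to 20 arrays with 15 residual degrees of freedom, with Benjamini-Hochberg adjustment over 11836 genes and calls at an adjusted p under 0.05. Ages were compared in 8 pairs and by an F test, with 2 pairs added later. Pairs of genes were tested by exact permutation over arrays. Members, lists and tests were chosen with earlier results of these data known. All 8 members are named, with the 3 most similar genes of each (Gm and Rik names skipped) and called genes of the lists, at most 4 per list and comparison. Clu at 10 months, Flt1, Fgf2, A2m, Lcn2, Stat3, Itgb2 and the uncalled microglia markers were named in addition, after their values were seen. Precision is limited by the number of arrays, 4 per age. RMA gives arrays a common distribution, so a shift of all genes would not be seen. The steps were tested on simulated data.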

Additional observations from a re-analysis of the deposited data

Results flagged for a closer look

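In 40 groups of 4 arrays, 8 genes at 5 ages, 1 array stood apart by the ratio of its gap to the range of its group. C1qc at 1 month was 7.54 in replicate 3, where the next array was at 7.33 and the lowest at 7.32, a gap of 0.954 of the range. Chance gives about 1 such group in 20.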

How the results depend on the processing

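The F test over all ages called 8 of 8 genes in 28 of the 31 alternatives, 6 with the brightest probe set or the 50% filter and 7 with the Y-linked covariate. Of the 632 alternative values of single members in the comparisons of 2, 4 and 10 months with 1 month and of 10 with 4 months, 564 kept their direction and side of the threshold, 41 lost their call, 6 gained one and 21, all of them values that had not been called, changed sign. At 2 months against 1 month the count of 8 was 4 with the Y-linked covariate and 7 to 8 without 1 array. At 4 months against 1 month the count of 6 was 3 with the brightest probe set and 5 to 6 without 1 array. At 10 months against 4 months the count of 5 was 3 with the mean of the probe sets, 2 with the Y-linked covariate or only the arrays of both ages, 1 at a minimum of 1.5-fold, and 3 to 5 without 1 array. The count of 3 at 10 months against 1 month was 3 to 5 without 1 array, with 5 without replicate 2 of 10 months. Between 2 and 4 months array weights called 2 in place of 0. Between 6 and 10 months the count of 0 was 1 with the brightest probe set, the 50% filter, array weights, quantile normalization, a robust eBayes fit with trend or only the arrays of both ages, and 0 to 1 without 1 array. Leaving out arrays of other ages gave at most 2 there. Of the pairs after 2 months, 8 became 5 with the brightest probe set and 6 to 9 without 1 array. With 4 or 6 months alone the count was 0, where 4 arrays against 4 give no p below 0.0286. The same floor holds for these ages alone in the late step. In the late step 2 became 0 with the mean of the probe sets, the brightest probe set, quantile normalization, 4 or 6 months alone or the replicate block, and 0 to 3 without 1 array. Signs changed at 10 months against 1 month for C1qa with the brightest probe set (-0.032) and array weights (-0.11), and for C1qc with the brightest probe set (-0.074), median centring (-6e-04), quantile normalization (-0.0075) and array weights (-0.0039), with ranges without 1 array of -0.064 to 0.14 for C1qa and -0.090 to 0.057 for C1qc. At 10 months against 4 months signs changed for C3 with the mean of the probe sets (-0.023) and the brightest (-0.038), for Cd59a (0.019) and Cfi (0.0052) with the brightest, and the range of C3 without 1 array was -0.024 to 0.10. The cause of these changes was not tested. With the replicate number as a block the counts at 2, 4 and 10 months against 1 month were 8, 5 and 3, and 5 at 10 months against 4 months. C1qa at 4 months was the 1 call lost under it (0.46, adjusted p = 0.0536). The numbers do not pair the mice: same-numbered arrays had a mean correlation of deviations of -0.05, and 3 of 20 arrays correlated best with their own number. Within the replicate block the pairs of the first step cannot pass with 16 splits. Each of 4 mice per age weighs on these values, and genes near the filter limit, C3 and Cfi, have the least signal.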
